A study of Mus musculus with 6 samples.

Results

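*Aplnr*, the gene of the apelin receptor, was examined together with *Apln*, which encodes its ligand apelin, and with 8 genes that mark endothelial cells: *Pecam1*, *Cdh5*, *Kdr*, *Flt1*, *Tek*, *Tie1*, *Vwf* and *Egfl7*. The genes were taken by symbol. All 10 are among the 41709 genes of the expression table, and all 10 passed the filter of a mean of at least 1 TPM, which 11611 genes passed. Levels are given in TPM, in which a library's transcripts, counted per unit of length, are scaled to a common total, so that genes of one library can be compared.

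The tissue was the tibialis anterior (TA) muscle of male C57BL/6J mice, collected 14 days after electroporation. Lrpprc is a protein that binds RNA in mitochondria. In each mouse, one TA muscle received a plasmid for Flag-tagged wild-type mouse Lrpprc (LrpprcWT, 3 libraries) and the opposite TA muscle a plasmid for the Flag-tagged P27A variant (LrpprcP27A, 3 libraries), which has alanine in place of a proline that can be dihydroxylated. Both groups therefore share hyaluronidase injection, electroporation and extra Lrpprc from a CMV plasmid, and untreated muscle was not analysed here. The age of the mice used for RNA-seq is not given in the sources used here. Whole muscle was sequenced, so a lower level of an endothelial mRNA can come from fewer endothelial cells or from less of that mRNA per cell, and these cannot be told apart.

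Apelin is a small secreted peptide that acts through a G protein-coupled receptor. In blood vessels, the receptor is found on endothelial cells, and apelin is made by sprouting endothelial cells, while contracting muscle also releases apelin. Endothelial cells line the capillaries between myofibres. They hold together through VE-cadherin (*Cdh5*) and PECAM-1 (*Pecam1*), respond to vascular endothelial growth factor (VEGF) through the receptors encoded by *Kdr* and *Flt1*, and to angiopoietins through the receptors encoded by *Tek* and *Tie1*.

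Facts of the libraries that touch every value are these. The TPM of each library sums to 1000000, and the number of reads is not kept in this unit. The LrpprcWT library with the number 8 lay apart from the other LrpprcWT libraries: on the first principal component it scored -0.80, against -42.4 and -41.6 for numbers 4 and 9 and 18.0 to 38.9 for the LrpprcP27A libraries. On the deposited scale the median gene was 0.32 lower with LrpprcP27A (log2), and with median-of-ratios scaling, which sets the typical gene to no change, this median was -0.0047. The 18S ribosomal RNA locus *Rn18s-rs5* took 8874 to 17614 TPM with LrpprcWT and 37023 to 44435 TPM with LrpprcP27A. Its part in the lower values of other genes was not tested. *Lrpprc*, from mouse gene and plasmid together, was at 35.1 to 75.2 TPM with LrpprcWT and at 26.0 to 29.7 TPM with LrpprcP27A. The tissue label was checked by 9 myofibre genes, which summed to between 127453 and 144398 TPM with LrpprcWT and between 120343 and 138402 TPM with LrpprcP27A.

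*Aplnr* lies on chromosome 2 of GRCm39 (84966569 to 84970267, plus strand), and its canonical transcript has 1 exon. *Apln* lies on chromosome X (47114019 to 47123775, minus strand) with 3 exons, and *Cdh5* on chromosome 8 (104828231 to 104871143, plus strand) with 12. Many endothelial promoters are bound by transcription factors of the ETS family, which recognise a GGAA core. The 250 bases before the annotated start of the canonical transcript were therefore searched for CAGGAA, an ETS-type sequence, on both strands. This was done for 9 of the genes, all but *Cdh5*. For *Pecam1*, *Kdr*, *Vwf* and *Egfl7* the window lies inside the annotated span of the gene. The promoters of *Aplnr* and *Apln* are printed because the receptor and its ligand both differed between the groups. They are read 5′ to 3′ along the gene's strand from GRCm39, at chr2:84966319-84966568 (plus) and chrX:47123776-47124025 (minus), and capitals mark CAGGAA or its reverse complement TTCCTG.
Aplnr: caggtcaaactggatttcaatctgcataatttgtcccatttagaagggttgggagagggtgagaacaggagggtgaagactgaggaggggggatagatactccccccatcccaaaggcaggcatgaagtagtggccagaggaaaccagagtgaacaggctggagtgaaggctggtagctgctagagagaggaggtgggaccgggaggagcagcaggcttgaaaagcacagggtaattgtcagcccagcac
Apln: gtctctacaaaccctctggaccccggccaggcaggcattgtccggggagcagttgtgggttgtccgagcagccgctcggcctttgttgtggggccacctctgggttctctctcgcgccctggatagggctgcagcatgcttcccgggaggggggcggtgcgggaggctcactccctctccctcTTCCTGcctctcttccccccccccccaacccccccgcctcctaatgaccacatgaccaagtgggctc

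CAGGAA or its reverse complement was present before 3 of the 9 genes, *Apln*, *Tek* and *Vwf*, and the match began 67, 37 and 40 bases before their starts. It was present before 24.5% of all 21757 protein-coding genes searched in the same way. The *Aplnr* window held no match to CAGGAA, so the receptor and ligand promoters do not share this longer match. It does hold the GGAA core. Windows with GGAA but not CAGGAA were not counted, so a window without a match can still hold an ETS-type sequence. The letters ACGTG, the core bound by hypoxia-inducible factors, were found before *Tie1*, *Vwf* and *Egfl7* (3 of 9, against 17.0% of all genes), and the letters AGATAA, which factors of the GATA family can bind, before 0 of 9 (9.61% of all genes). ACGTG and AGATAA were also searched on either strand, and other forms of these sequences were not searched. A match is a description of the letters and not a bound site.

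The receptor mRNA was at 28.3, 23.3 and 27.3 TPM in the LrpprcWT libraries with the numbers 4, 8 and 9, and at 12.3, 10.8 and 6.04 TPM in the LrpprcP27A libraries with the same numbers. The groups did not overlap, the LrpprcWT values lay close together, and the lowest value was in LrpprcP27A library 9. The LrpprcP27A mean was 36.9% of the LrpprcWT mean (9.69 ± 3.25 against 26.3 ± 2.63 TPM, SD, n = 3 each). *Aplnr* fell by 1.40 in log2(TPM + 1), with a standard error of 0.22 and a 95% interval from -1.91 to -0.89 (adjusted p = 0.0130 from limma, over all genes tested). Between the muscles with the same number the differences were -1.14, -1.04 and -2.01. With median-of-ratios scaling *Aplnr* was 1.05 lower (adjusted p = 0.0378 from limma). Without LrpprcWT library 9 the adjusted p from limma was 0.0905, at a log2 fold change of -1.37.

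The ligand mRNA *Apln* was at 31.4, 6.16 and 23.2 TPM with LrpprcWT and at 7.28, 3.08 and 4.12 TPM with LrpprcP27A. LrpprcWT library 8 was far below the other two and within the range of the LrpprcP27A libraries, so the groups overlapped, although each LrpprcP27A muscle was below the LrpprcWT muscle with its number. *Apln* fell by 1.67 in log2(TPM + 1) (standard error 0.51, 95% interval from -2.83 to -0.52, adjusted p = 0.0448 from limma). The differences within pairs were -1.97, -0.81 and -2.24. With the numbers as a replicate block the adjusted p from limma was 1.88e-06, and with median-of-ratios scaling without the block it was 0.102, at a log2 fold change of -1.34. Adding the block to that scaling gave 0.0121. The call of *Apln* was lost without LrpprcWT library 4 (log2 fold change -1.24, adjusted p = 0.132 from limma) or 9 (-1.45, 0.174) and without LrpprcP27A library 8 (-1.45, 0.110) or 9 (-1.61, 0.0955). *Apela*, the gene of the receptor's other ligand, was listed at 0 in all 6 libraries.

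**Figure D1:**
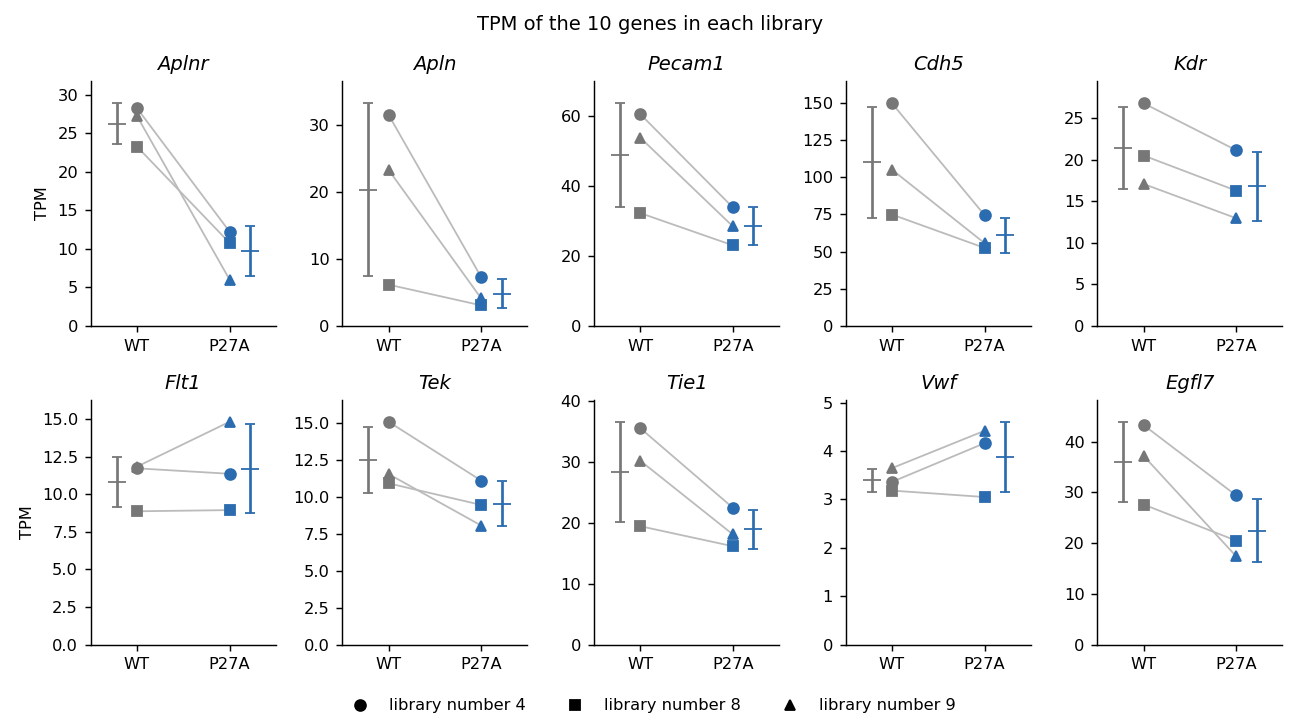
TPM (vertical axes, each from 0) of the 10 genes in the 3 LrpprcWT (grey) and 3 LrpprcP27A (blue) libraries. Symbols give the library number, lines join libraries with the same number, and bars give the mean ± SD. *Aplnr* is separated between the groups with a narrow LrpprcWT range of 23.3 to 28.3 TPM, whereas *Apln*, *Cdh5* and *Pecam1* spread widely within LrpprcWT and *Flt1* and *Vwf* show no common direction.

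The genes of endothelial junctions were next. *Cdh5*, the most abundant of the 10 in both groups, was at 150, 75.0 and 105 TPM with LrpprcWT and at 74.6, 52.5 and 55.7 TPM with LrpprcP27A. The groups did not overlap, but LrpprcWT library 8 lay barely above LrpprcP27A library 4. *Cdh5* fell by 0.80 in log2(TPM + 1) (standard error 0.24, 95% interval from -1.34 to -0.26, adjusted p = 0.0424 from limma), to 55.4% of the LrpprcWT mean. This call was lost without LrpprcWT library 4 (adjusted p = 0.119 from limma) or 9 (0.144), without LrpprcP27A library 8 (0.116) or 9 (0.103), and with median-of-ratios scaling (log2 fold change -0.43, adjusted p = 0.170). When the replicate block was added to that scaling, *Cdh5* was called (adjusted p = 0.0147 from limma). *Pecam1*, which encodes an adhesion molecule of endothelial cells that leukocytes and platelets also carry, was at 60.6, 32.3 and 53.9 TPM with LrpprcWT and at 33.9, 23.1 and 28.5 TPM with LrpprcP27A. Its groups overlapped through LrpprcWT library 8 and LrpprcP27A library 4. *Pecam1* had a log2 fold change of -0.73 with a standard error of 0.23, and limma gave it an adjusted p of 0.0511. The replicate block gave *Pecam1* an adjusted p of 0.000167, and the unpaired fit called it without LrpprcWT library 8 (0.00454) or LrpprcP27A library 4 (0.0481). After median-of-ratios scaling *Pecam1* had -0.36 (0.187), and adding the block to that scaling gave 0.0176.

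The VEGF receptors showed other values. *Kdr*, which encodes the main signalling receptor for VEGF on endothelium, was at 26.8, 20.5 and 17.1 TPM with LrpprcWT and at 21.2, 16.3 and 13.0 TPM with LrpprcP27A. The groups overlapped widely, and the order of the library numbers 4, 8 and 9 was the same in both. The log2 fold change of *Kdr* was -0.34 (95% interval from -0.81 to 0.13, adjusted p = 0.211 from limma), and within pairs it was -0.33, -0.32 and -0.37. With the replicate block *Kdr* fell (adjusted p = 0.0282 from limma), by about as much as the median gene, and with median-of-ratios scaling its log2 fold change was 0.017. *Flt1*, which encodes a VEGF receptor that also exists as a soluble decoy, was at 11.7, 8.87 and 11.8 TPM with LrpprcWT and at 11.4, 8.94 and 14.8 TPM with LrpprcP27A. Its log2 fold change was 0.09 (95% interval from -0.34 to 0.53, adjusted p = 0.709 from limma) on the deposited scale and 0.43 with median-of-ratios scaling (adjusted p = 0.0934 from limma; adding the replicate block gave 0.0430).

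The receptors of the angiopoietin axis were lower in each LrpprcP27A muscle than in the LrpprcWT muscle with its number. *Tie1*, which encodes a partner receptor with no strong ligand of its own, was at 35.6, 19.5 and 30.2 TPM with LrpprcWT and at 22.5, 16.2 and 18.1 TPM with LrpprcP27A. *Tek*, the gene of the angiopoietin receptor itself, was at 15.1, 10.9 and 11.5 TPM with LrpprcWT and at 11.1, 9.43 and 8.04 TPM with LrpprcP27A. In both genes 1 LrpprcP27A value, that of library 4, lay above LrpprcWT library 8, so the groups overlapped. In the limma fit *Tie1* was at -0.53 on the log2 scale (adjusted p = 0.0897, standard error 0.22) and *Tek* at -0.36 (adjusted p = 0.121, standard error 0.17). Both fell once the replicate block was added (adjusted p = 0.00271 and 0.0276 from limma), and without LrpprcWT library 8 the unpaired adjusted p of *Tie1* was 0.00729. After median-of-ratios scaling *Tie1* had -0.17 and *Tek* -0.013.

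The genes of secreted products gave unlike values. *Egfl7*, which encodes a secreted protein of endothelial cells, was at 43.2, 27.6 and 37.2 TPM with LrpprcWT and at 29.4, 20.5 and 17.4 TPM with LrpprcP27A. The groups overlapped through LrpprcP27A library 4, and limma gave a log2 fold change of -0.67 with a standard error of 0.22 and an adjusted p of 0.0516 (0.000668 under the replicate block). *Egfl7* was also called without LrpprcWT library 8 (adjusted p = 0.0147 from limma) or LrpprcP27A library 4 (0.0247). After median-of-ratios scaling *Egfl7* had -0.31 (0.282), and it was not called when the block was added to that scaling (0.0846). *Vwf*, which encodes von Willebrand factor, the clotting protein stored in endothelial cells and platelets, was the least abundant, with 3.36, 3.18 and 3.65 TPM in LrpprcWT and 4.16, 3.05 and 4.42 TPM in LrpprcP27A libraries. Its log2 fold change was 0.14 on the deposited scale (95% interval from -0.21 to 0.49, adjusted p = 0.473 from limma) and 0.43 with median-of-ratios scaling (adjusted p = 0.0608 from limma; adding the block gave 0.0495). Quantile normalization gave *Vwf* 0.54 and an adjusted p of 0.0448.

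Of the 10 genes, 3 were called lower with LrpprcP27A at an adjusted p under 0.05 from limma, where 23.3% of all genes tested were called lower. The 3 were *Aplnr*, *Apln* and *Cdh5*. Higher calls were 0 (1.34% of all genes). At an unadjusted p under 0.05, 6 of 10 genes were lower and 0 higher, beside 5134 of all 11611 genes lower. Groups that did not overlap, with LrpprcP27A below LrpprcWT, were seen in 2 of 10 genes, *Aplnr* and *Cdh5*, against 47.6% of all genes, and the opposite order in 0 of 10, against 3.51%. With the replicate block 8 of 10 were called lower, against 48.4% of all genes, *Flt1* and *Vwf* being the exceptions, and 0 higher, against 2.69%. With median-of-ratios scaling *Aplnr* alone was called (1 of 10 lower against 6.03% of all genes, and 0 higher against 5.25%). Quantile normalization called 1 lower, *Aplnr* (4.48% of all genes), and 1 higher, *Vwf* (4.26%). Both the block and median-of-ratios scaling in one fit called 4 lower (15.8% of all genes) and 2 higher (13.4%). The 4 were *Aplnr*, *Apln*, *Pecam1* and *Cdh5* (adjusted p = 0.0120, 0.0121, 0.0176 and 0.0147 from limma), and the 2 were *Flt1* and *Vwf*. The unpaired fit called 6 lower without LrpprcWT library 8 (59.5% of all genes; 0 higher, 2.62%) and 0 lower without LrpprcWT library 9 (0.129% of all genes; 0 higher, 0.0258%). The median log2 fold change of the 8 endothelial genes was -0.44 on the deposited scale, beside -0.32 for all genes, and -0.093 beside -0.0047 with median-of-ratios scaling. *Aplnr* lay 1.08 and *Apln* 1.36 below the median of all genes on the deposited scale.

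**Figure D2:**
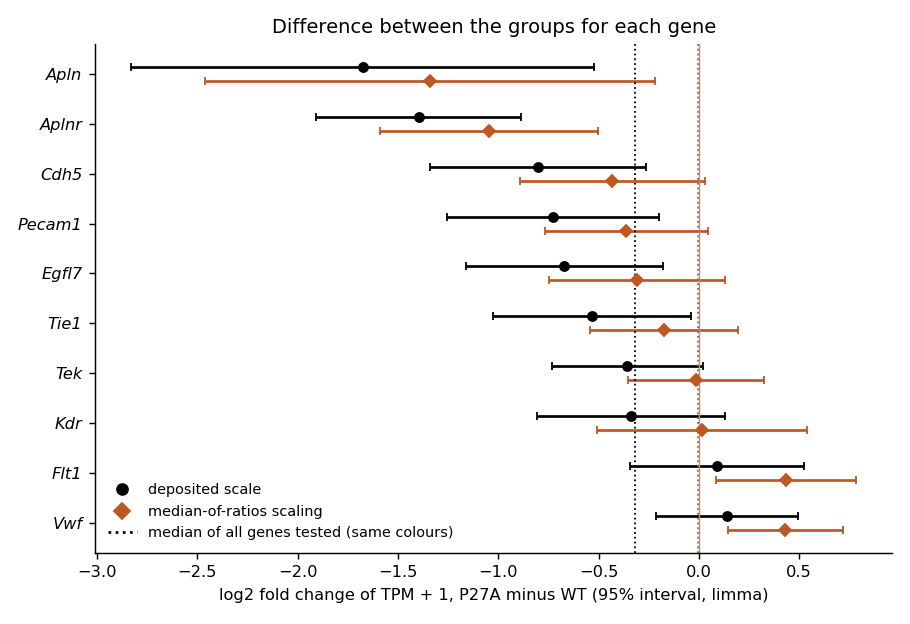
Log2 fold changes (LrpprcP27A minus LrpprcWT, horizontal axis) of the 10 genes with 95% intervals from limma, on the deposited scale (black circles) and with median-of-ratios scaling (orange diamonds). Dotted lines give the median of all genes tested on each scale (-0.32 and -0.0047). The intervals of *Aplnr* and *Apln* stay below 0 on both scales.

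The order of the mean levels also differed between the groups. With LrpprcWT the mean TPM fell from *Cdh5* (109.9) through *Pecam1* (48.9), *Egfl7* (36.0), *Tie1* (28.4), *Aplnr* (26.3), *Kdr* (21.5), *Apln* (20.3), *Tek* (12.5) and *Flt1* (10.8) to *Vwf* (3.40). Only *Cdh5* and *Vwf* were separated from their neighbour in this order by ranges that did not overlap. With LrpprcP27A, *Aplnr* stood seventh, after *Flt1* (11.7 TPM), and *Apln* ninth (4.83 TPM). The range of *Aplnr* overlapped those of *Flt1* and *Tek* (9.52 TPM), and that of *Apln* overlapped that of *Vwf*. Among neighbours in the LrpprcP27A order, only *Cdh5* from *Pecam1* and *Tek* from *Apln* were separated without overlap. Within libraries *Aplnr* held place 4 to 6 of the 10 with LrpprcWT and place 6 to 8 with LrpprcP27A.

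A ratio between genes of one library does not change with the scaling of that library, apart from the pseudocount. The log2(TPM + 1) of *Aplnr* was therefore set against that of each other gene in each library. Relative to *Flt1*, *Aplnr* was 1.14 to 1.30 higher in the LrpprcWT libraries and between -1.17 and 0.25 in the LrpprcP27A libraries, a difference of -1.49. The difference between the groups was -1.54 relative to *Vwf*, -1.06 relative to *Kdr*, -1.04 relative to *Tek*, -0.86 relative to *Tie1* and -0.73 relative to *Egfl7*. For these 6 of the 9 genes the groups did not overlap (p = 0.1 in a two-sided exact permutation test, the least this design can give, and 0.15 after Benjamini-Hochberg adjustment over the 9 comparisons). Relative to *Pecam1* and *Cdh5* the differences were -0.67 and -0.60 and the groups overlapped (exact permutation test, two-sided, p = 0.2 for each, 0.225 after adjustment). *Aplnr* was lower relative to each of the 8 endothelial genes in 3 of 3 pairs. Relative to its ligand *Apln* it was 0.28 higher with LrpprcP27A, in ranges that overlapped (-0.15 to 1.76 and 0.46 to 1.53; exact permutation test, two-sided, p = 0.6). The tests cannot reach 0.05 in this design.

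**Figure D3:**
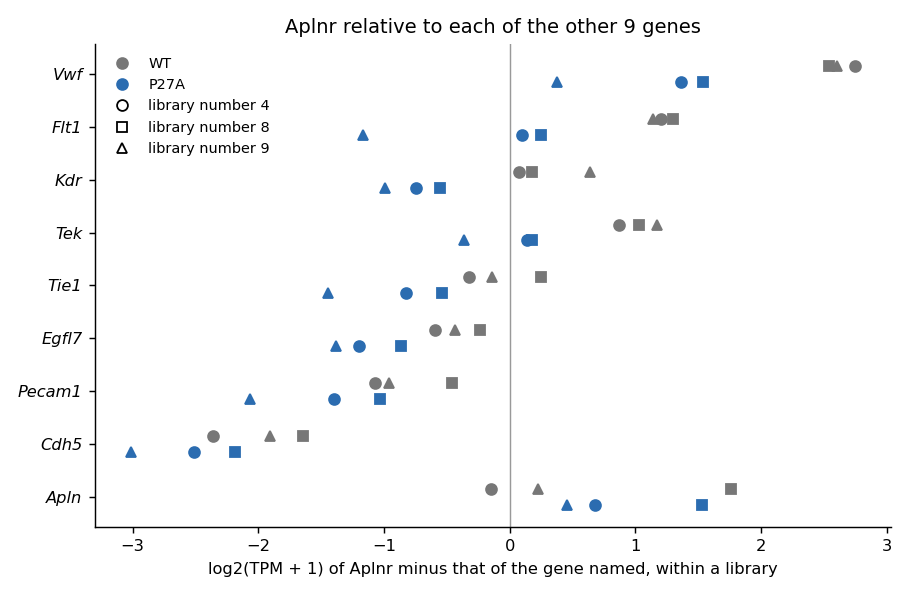
Difference in log2(TPM + 1) between *Aplnr* and each other gene (horizontal axis) within each LrpprcWT (grey) and LrpprcP27A (blue) library, with symbols for the library number. *Aplnr* is lower relative to *Vwf*, *Flt1*, *Kdr*, *Tek*, *Tie1* and *Egfl7* in every LrpprcP27A library than in any LrpprcWT library, and the groups overlap for *Pecam1*, *Cdh5* and *Apln*.

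The genes whose values followed *Aplnr* most closely over the 6 libraries were not among the endothelial genes. By Pearson's correlation of log2(TPM + 1) over the 6 libraries they were *Avpr1a*, which encodes a vasopressin receptor (r = 0.997), *C130080G10Rik* (0.997), *Smco4* (0.996), *Foxo6*, a forkhead transcription factor (0.995), and *Zfp36l1*, an mRNA-binding protein that promotes decay (0.995). Among the other 9 genes the highest r was that of *Egfl7* (0.903), which ranked 1076 of 11610 genes, and the lowest that of *Vwf* (-0.548). Subtracting the group means left *Polm* (0.997), *Avpr1a* (0.991), *Gm16124* (0.990), *Cited2* (0.988) and *Zfp36l1* (0.988) highest, and *Egfl7* (0.795), *Tek* (0.762) and *Kdr* (0.702) were the nearest of the endothelial genes. The points share 6 libraries and the difference between the groups, and these correlations are a description. *Avpr1a*, at 1.56 TPM with LrpprcWT and 0.645 TPM with LrpprcP27A, passed the filter only through its LrpprcWT values.

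Of 8 partners of the apelin pathway, 5 passed the filter and 2 were called lower by limma. The block called 4 of 5. Here and for the lists that follow, 23.3% of all genes were called lower without the block, 48.4% with it and 6.03% with median-of-ratios scaling. The shares called higher were 1.34%, 2.69% and 5.25%. *Gnai2*, the gene of an inhibitory G protein subunit, had 83.1 ± 19.7 TPM with LrpprcWT and 46.5 ± 7.65 TPM with LrpprcP27A (SD, n = 3 each), a log2 fold change of -0.81 (adjusted p = 0.0265). *Arrb2*, which encodes a beta-arrestin that switches receptors off, had a log2 fold change of -0.85 (adjusted p = 0.0283), whereas its relative *Arrb1* had 0.04 (adjusted p = 0.810). *Furin*, a protease that cuts precursor proteins, had -0.36 (adjusted p = 0.102, and 0.0302 with the block). Neither *Gnai2* nor *Arrb2* was called with median-of-ratios scaling (adjusted p = 0.0702 and 0.0582), where *Arrb1* was called higher (0.0445). These genes are used by many receptors and cell types.

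Of 8 VEGF ligands and co-receptors, 0 were called by limma in either direction. At an unadjusted p under 0.05 from limma 3 were lower, beside 5134 of all 11611 genes. The replicate block called 4 lower (*Vegfc*, *Pgf*, *Nrp1* and *Nrp2*), against 48.4% of all genes. *Vegfa*, the principal VEGF and one that myofibres make, had 171 ± 36.3 TPM with LrpprcWT and 144 ± 17.1 TPM with LrpprcP27A (SD, n = 3 each), with a log2 fold change of -0.23 (adjusted p = 0.281 from limma), and *Vegfb* had -0.05 (0.704). Of 5 tested genes of the angiopoietin axis, 2 were called lower: *Svep1*, an extracellular matrix protein (log2 fold change -0.85, adjusted p = 0.0339), and *Adam17*, a protease that sheds receptors (-0.58, 0.0402). Neither was called with median-of-ratios scaling (log2 fold change -0.59, adjusted p = 0.0699, and -0.24, 0.125), and the block called 4 of 5. *Ptprb*, the phosphatase of the angiopoietin receptor, had -0.30 (0.365).

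All 18 genes of endothelial junctions and surface had log2 fold changes below 0 on the deposited scale, and 8 of 18 were called lower, against 23.3% of all genes. Their median was -0.67, beside -0.32 for all genes. With median-of-ratios scaling 18 of 18 also lay below 0, with a median of -0.37 beside -0.0047 for all genes. The share of all genes below 0 was not counted. *Cd34* (log2 fold change -1.04, adjusted p = 0.0368 from limma) and the tight junction gene *Cldn5* (-0.92, 0.0424) changed most among those called, and *Cd93* had -0.92 (0.0683, and 4.87e-05 with the block). Whole muscle does not show which cells carry these mRNAs. With the replicate block 17 of 18 were called lower (against 48.4% of all genes), without LrpprcWT library 8 all 18 (against 59.5% of all genes), and with median-of-ratios scaling 1, *Plvap* (6.03%). Of 13 endothelial transcription factors 4 were called lower (23.3% of all genes), led by *Klf4* (-1.13, 0.0163) and *Klf2* (-1.03, 0.0116), which respond to blood flow in endothelium and are also made by other cells. With the block 9 of 13 were called (48.4%). *Klf2* alone stayed under 0.05 with median-of-ratios scaling (0.0426). Of 7 tested Notch and Delta genes 1 was called, the Notch target *Heyl* (-0.79, 0.0154), and 7 of 7 with the block. The ligands *Dll4* and *Jag2* had -0.53 (0.108, and 0.00379 with the block) and -0.34 (0.141, and 0.0303).

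Vessel types and states were examined by marker lists, beside the same shares of all genes called (23.3% lower, and 48.4% with the block). Of 8 capillary transport genes 2 were called lower, *Cav1* (log2 fold change -0.76, adjusted p = 0.0438 from limma) and *Fabp4* (-0.63, 0.0319), while the water channel gene *Aqp1* had 0.11 (0.624). The block called 3 of 8. Of 4 tested arterial genes 1 was called lower, *Efnb2* (-0.56, 0.0482), and *Gja4* and *Sema3g* had -0.32 and -0.26. With median-of-ratios scaling 0 capillary and 0 arterial genes were called lower (adjusted p = 0.158 for *Cav1*, 0.162 for *Fabp4* and 0.180 for *Efnb2*). Of 7 venous and venule genes 3 were called lower: *Sele* and *Selp*, which encode the selectins by which activated endothelium catches leukocytes (-1.70, 0.0126, and -1.17, 0.0171), and *Vcam1*. *Sele* had 2.76 ± 1.33 TPM with LrpprcWT and 0.104 ± 0.124 TPM with LrpprcP27A (SD, n = 3 each), and the 3 genes kept their calls with median-of-ratios scaling. *Sele* passed the filter of a mean of 1 TPM only through its LrpprcWT values, so its call is given as a description. *Lrg1* and *Ephb4* of the same list had 0.20 (0.535) and -0.75 (0.0616, and 0.000173 with the block), and the block called 5 of 7. Of 5 tested tip cell genes, a state in which *Apln* is made, 2 were called lower, *Cxcr4* (-1.28, 0.0116) and *Nid2* (-1.18, 0.0448), and both are also made outside vessels. The block called 4 of 5, and with median-of-ratios scaling *Cxcr4* kept its call (0.0228) and *Nid2* did not (0.121). Of 3 tested lymphatic genes 2 were called lower, *Ccl21a* (-1.37, 0.0171) and *Pdpn* (-1.29, 0.0168), both also with the block and with median-of-ratios scaling.

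**Figure D4:**
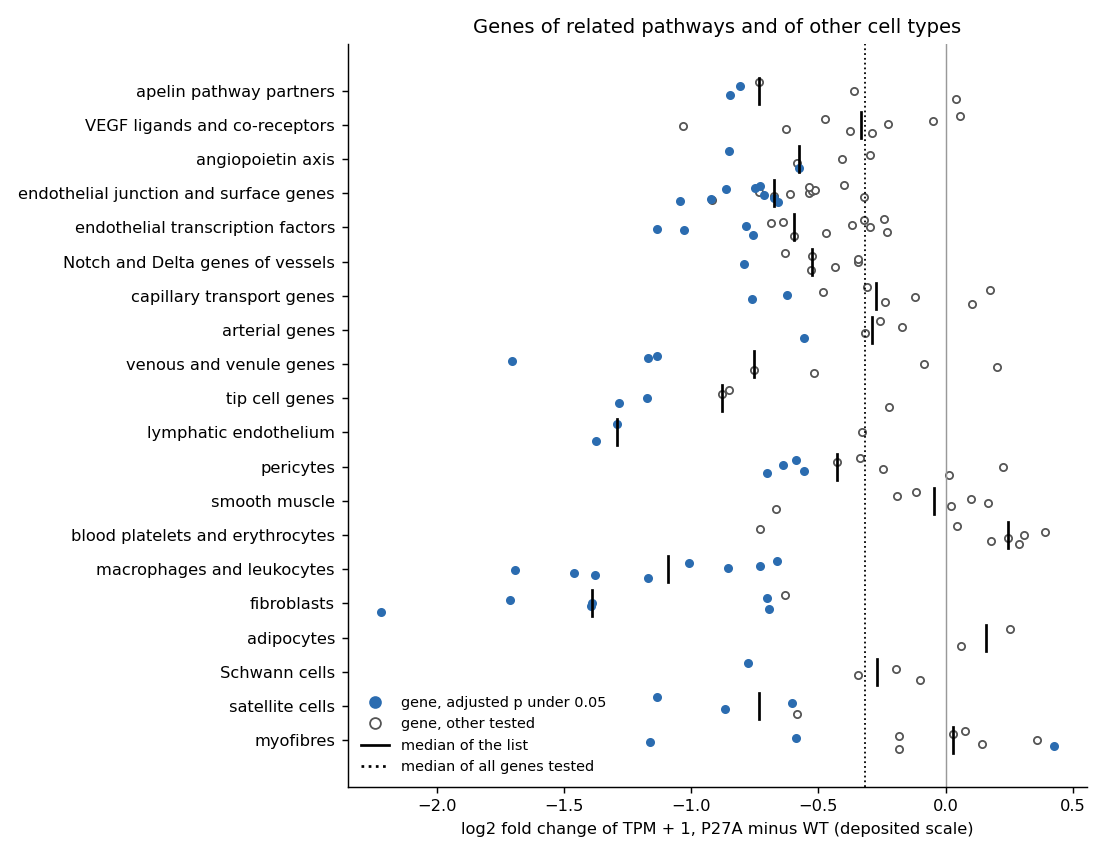
Log2 fold changes (LrpprcP27A minus LrpprcWT, horizontal axis, deposited scale) of the tested genes of 20 lists. Filled points are genes with an adjusted p under 0.05 from limma, bars are list medians, and the dotted line is the median of all genes (-0.32). The fibroblast (-1.39, 7 genes), lymphatic (-1.29, only 3 tested genes of 6 listed) and macrophage (-1.09, 8 genes) lists have the lowest medians. They lie below the -0.67 of the endothelial junction and surface genes.

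Markers of other cells moved beside these genes. All 8 macrophage and leukocyte markers were called lower (3 of 8 with median-of-ratios scaling, median log2 fold change -1.09 on the deposited scale), their sum being 86.3 to 191 TPM with LrpprcWT and 30.1 to 65.7 TPM with LrpprcP27A, as with *Cd68* (-1.69, adjusted p = 0.0160 from limma) and *C1qa* (-1.38, 0.0306). Of 7 fibroblast markers 6 were called lower (4 with median-of-ratios scaling, median -1.39), with sums of 542 to 875 and 163 to 336 TPM, *Col1a1* having -2.22 (0.0124) and *Dcn* -0.69 (0.0366). Of 9 pericyte genes 4 were called lower, among them *Cox4i2* (-0.70) and *Ndufa4l2* (-0.64), whereas the most abundant, *Rgs5*, had -0.33 (0.149, and 0.0250 with the block) and *Abcc9* 0.015 (0.932). The block called 6 of 9 pericyte genes, and median-of-ratios scaling 0. Of 6 smooth muscle genes limma called 0 (1 lower without adjustment of p at 0.05, and 1 with the block). *Acta2* had -0.67 (0.0594, and 0.000441 with the block), whereas *Tagln* had -0.12 (0.630). The median of the smooth muscle list was -0.048, and 3 of its 6 genes lay below 0. After median-of-ratios scaling its median was 0.24, with 1 of 6 below 0. Of 4 satellite cell genes tested 3 were called lower, *Pax7*, *Myf5* and *Vcam1*, of which *Vcam1* is also counted among the venous genes. Of 4 Schwann cell genes 1 was called lower (*Pmp22*), and of 2 adipocyte genes 0 (also 0 unadjusted and 0 with the block). Of 9 myofibre genes 2 were called lower (*Myh2* and *Mylpf*) and 1 higher (*Actn3*, against 1.34% of all genes). The block called 2 higher (*Actn3* and *Myh4*, against 2.69% of all genes).

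Of 7 tested genes of platelets and red cells 0 were called by limma. At an unadjusted p under 0.05 from limma 1 was lower and 0 higher, beside 5134 of all 11611 genes lower. The block called 1 lower (*Pf4*, against 48.4% of all genes) and 2 higher (*Hbb-bs* and *Hbb-bt*, against 2.69%). *Hbb-bs* and *Hba-a2*, genes of haemoglobin chains, had 1311 ± 334 and 1118 ± 240.3 TPM with LrpprcWT and 1594 ± 224 and 1311 ± 155 TPM with LrpprcP27A (SD, n = 3 each), log2 fold changes of 0.31 and 0.25 (adjusted p = 0.220 and 0.251 from limma). The platelet genes *Itga2b* and *Gp9* did not reach a mean of 1 TPM. The part of leukocytes, fibroblasts and blood in the values of the 10 genes was not tested. The 8 endothelial genes themselves summed to 346, 198 and 270.5 TPM in LrpprcWT libraries 4, 8 and 9 and to 208, 150 and 160 TPM in LrpprcP27A libraries 4, 8 and 9. LrpprcP27A library 4 lay above LrpprcWT library 8, so the sums overlapped between the groups.

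Reads of overlapping genes could bear on 3 of these values, since the library kit does not mark the strand. In the annotation used, exons of *Cdh5* and *Tie1* overlap those of the antisense RNAs *Gm64067* and *Gm70435*, for which no value was used here. Exons of *Egfl7* overlap *Agpat2* on the opposite strand, which was under 5 TPM in each of the 6 libraries, and *Mir126a*, the gene of an endothelial microRNA, which was listed at 0 in all 6 libraries. No exon of another annotated gene overlaps those of *Aplnr* or *Apln*.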

How the data were processed

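RNA from 6 TA muscles was sequenced, 3 LrpprcWT and 3 LrpprcP27A. Per the study's methods, the authors made libraries with a kit that does not mark the strand, filtered the paired-end reads by quality and length, mapped these to GRCm39 (CLC Genomics Workbench) and deposited TPM per gene. Since TPM does not carry the number of reads, the depth is unknown and no counting error is given.

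Groups and library numbers (4, 8 and 9, the replicates 1, 2 and 3 of the labels) come from the sample titles. The 11611 genes whose mean reached 1 TPM were taken to log2(TPM + 1), a scale that shrinks changes of weakly expressed genes. limma 3.58.1 (R 4.3.3) fitted a linear model with trended empirical Bayes moderation, and p-values were adjusted by Benjamini-Hochberg over all 11611 genes. The study's methods use an unpaired test on log TPM (Kruskal-Wallis), so the fit has no block. The numbers pair the muscles: the paper describes contralateral muscles of the same mice, and deviations from the group means correlated by 0.36, 0.53 and 0.36 in the 3 same-numbered pairs. Blocked values are given where they change the call of a named gene or, by over 1.5 times, a count. The fit was tested on simulated data that had no pairs and no shift of the typical gene. That test does not bear on the calls given here.

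Positions, exons and promoter windows are from GENCODE vM39 on GRCm39, matched by symbol. The promoter of *Cdh5* is not reported here. The genes named are the 10 members, the 5 genes closest to *Aplnr* and genes of 20 lists. From each list the rule took the 2 most abundant and 2 most changed called genes, but not all of these are named. Genes outside this rule, such as *Arrb1*, *Plvap* and the genes at 0, were named after their values were seen. Members and lists were chosen with earlier results of these data known. Alternatives were another pseudocount (0.1), filter (none, or 5 TPM), test, scaling or block, and each library left out. Python 3.11.15 was used for the exact tests and plots.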

Additional observations from a re-analysis of the deposited data

How the results depend on the processing

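*Aplnr* was lower with LrpprcP27A under all 16 alternatives run, and its adjusted p from limma stayed under 0.05 with a pseudocount of 0.1, a filter of 5 TPM, no trend, the replicate block and the 3 other scalings. Its log2 fold change remained -1.40 but was not called with no filter on low values (adjusted p = 0.0610) and by the Kruskal-Wallis test (0.0969), whose p with 3 against 3 is too large to survive adjustment over 11611 genes. Leaving out single libraries, it ranged from -1.58 to -1.12 (adjusted p = 0.00536 to 0.0905).

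The number of genes called lower, 3 of 10, depended on the setting. It was 0 with no filter (0.196% of all genes called lower; 5 of 10 unadjusted, beside 6671 of 21450), 0 by Kruskal-Wallis (0 of all genes; 2 of 10 unadjusted, beside 5530 of 11611), 8 with the replicate block (48.4%), and 1 under each of the 3 other scalings (over nuclear protein-coding genes 5.46%, median of ratios 6.03%, quantile 4.48%). It ranged from 0 to 6 with each library left out (0 without LrpprcWT library 9, where 0.129% of all genes were called lower, and 6 without LrpprcWT library 8, where 59.5% were). The number called higher was 0, but 1 with quantile normalization (*Vwf*) and 2 with the block and median-of-ratios scaling together (*Flt1* and *Vwf*), and 0 with each library left out. Directions turned in *Kdr* and *Flt1*: *Kdr* had a log2 fold change of 0.017 with median-of-ratios scaling, with and without the replicate block, and *Flt1* ranged from -0.081 to 0.25 with each library left out. Of 143 values of the 9 other genes under the alternatives, 106 kept direction and side of the threshold, 19 lost a call, 14 gained one and 4 turned. The causes were not tested. The differences of *Aplnr* from the other genes have no p under 0.1 in this design, and the sign-flip test of the 3 pairs none under 0.25. The difference of *Aplnr* from *Apln* was 0.28 with all libraries, -0.10 without LrpprcWT library 4, -0.044 without LrpprcP27A library 8 and 0.85 without LrpprcWT library 8. Counts over the lists under the block, under median-of-ratios scaling, or without LrpprcWT library 8, were added after the data were seen.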

Other observations

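Ratios within receptor families were also computed, with no test. For every 100 TPM of *Kdr*, *Flt1* had 43.7, 43.2 and 69.2 TPM in LrpprcWT libraries 4, 8 and 9 and 53.7, 54.9 and 114 TPM in the LrpprcP27A libraries with the same numbers. The ratio was higher with LrpprcP27A in each of the 3 pairs, and the groups overlapped through LrpprcWT library 9. For every 100 TPM of *Tie1*, *Tek* had 42.3, 56.0 and 38.1 TPM with LrpprcWT and 49.3, 58.4 and 44.4 TPM with LrpprcP27A, again higher in each pair and overlapping between the groups. *Apln* had 1.11, 0.264 and 0.852 TPM for every TPM of *Aplnr* with LrpprcWT and 0.594, 0.285 and 0.682 with LrpprcP27A. This ratio was lower with LrpprcP27A in pairs 4 and 9 and slightly higher in pair 8.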
